A study of Caenorhabditis elegans with 12 samples.

Results

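Small RNAs on long genomic intervals of repeated exact length are described here in Caenorhabditis elegans. The counts table lists 55259 genomic intervals, each with a chromosome, a start, an end and a strand, beside 20134 gene identifiers. An interval was taken as a member where it spans at least 1000 bp and where that exact length, to the base, is found in at least 5 intervals of the table. The rule uses coordinates alone and no count, and it gave 181 intervals of 16 different lengths. Of the 981 intervals of 1000 bp or more, the other 800 have lengths seen in fewer rows. Each length is called a span below, and each interval of that length a copy, which says nothing of their sequence. No genome sequence was used here, so whether copies of a span share their bases was not tested.

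The libraries hold small RNAs from whole worms at the L4 larval stage, grown at 15 °C, in 4 groups of 3 libraries each, named A, B and C within a group. CSR-1 IP and CSR-1 input came from animals with the genotype 1xFLAG::CSR-1, the first being the RNA recovered with beads against the FLAG tag. WAGO-1 P3G IP and WAGO-1 P3G input came from animals with WAGO-1::FLAG carrying the P3G change and WAGO-3 carrying P2G and A3E. The 2 strains thus differ at once in bait, in where the tag sits and in WAGO-3, and no IP of WAGO-1 without the P3G change was used here. A microRNA purification kit was used for input RNA only, from 500 ng of total RNA, and every comparison of an IP with its input includes that step. Libraries were made after 5' polyphosphatase treatment and read for 50 cycles. The opening of the description goes against the title in 9 libraries, the 6 inputs and the 3 WAGO-1 P3G IPs, and the title and the antibody field set the groups. Nothing in the labels tells whether the 3 libraries of a group came from separate cultures, so p-values measure the spread between these libraries, which may be technical.

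Argonaute proteins carry small RNAs that guide them to matching RNA. In C. elegans, CSR-1 binds small RNAs that are mostly antisense to genes expressed in the germline, and WAGO-1 binds small RNAs that act in silencing, transposons among their targets. DNA transposons of the Tc1/mariner family, such as Tc1 and Tc3, have inverted repeats at their ends, insert at the dinucleotide TA, and are kept silent in the germline by small RNA pathways. The rule that chose the members states that 2 of the spans are near these elements in length. They are called the Tc1-length span and the Tc3-length span here, the first 1 bp shorter than the 1612 bp span and the second the longest of the 16. The table names no element, and these names say nothing of sequence. The other spans are called by their length.

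Total counts were 3321443 to 6131378 in CSR-1 IPs, 878241 to 1311844 in CSR-1 inputs, 10952884 to 13473204 in WAGO-1 P3G IPs and 1235462 to 1373120 in WAGO-1 P3G inputs. Reads on no feature were a mean of 24.5% of CSR-1 IP totals, 56.9% of CSR-1 input totals, 31.9% of WAGO-1 P3G IP totals and 73.3% of WAGO-1 P3G input totals, so counted reads were 2405005 to 9187525 in IPs and 334088 to 533232 in inputs. The entry for reads without a unique alignment is 0 in every library. How reads with several alignments were treated is not given in the sources used here. CPM below are counts scaled to the counted reads of each library.

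The members are spread over all 6 chromosomes, with 20 on I, 27 on II, 18 on III, 42 on IV, 47 on V and 27 on X, and 85 of them are listed on the plus strand and 96 on the minus strand. By gene spans in RefSeq (WBcel235, the assembly that build ce11 names), 69 members overlap a protein-coding gene, 26 a pseudogene, 8 another noncoding gene and 78 none. In all, 83 members lie wholly inside a gene, and whether such a member is intronic or exonic is not known from gene spans. Only 1 pair of members overlaps, the 1020 bp intervals IV:15708245-15709264 (-) and IV:15708568-15709587 (+).

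The span with the most copies is 1242 bp, with 47. Next come the Tc1-length span with 21 copies, 1239 bp with 17, 1241 bp with 14, the Tc3-length span with 12 and 1252 bp with 10. Spans of 1253 and 1286 bp have 8 copies each, 1250 bp has 7, and 1243 and 1606 bp have 6 each. The spans of 1020, 1254, 1589, 1612 and 2075 bp have 5 and lie just inside the rule. Just outside it lie 11 spans with 4 copies each. Of these, the 1329 bp span had the highest levels, with 732.7 ± 172 CPM in CSR-1 IPs, 3145 ± 384 in CSR-1 inputs, 943.9 ± 19.2 in WAGO-1 P3G IPs and 765.4 ± 32.1 in WAGO-1 P3G inputs (SD, n = 3 each), while the 1240 bp span had 39.1 ± 8.49, 213.6 ± 18.5, 191.7 ± 5.16 and 109.0 ± 18.6 CPM in the same order. Lengths from 1239 to 1243 bp thus fill 5 neighbouring base numbers, and the Tc1-length span and 1612 bp are neighbours too.

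All members together took a smaller share of counted reads in the CSR-1 IPs than in the CSR-1 inputs, and a larger share in the WAGO-1 P3G IPs than in the WAGO-1 P3G inputs. The share was 0.253%, 0.360% and 0.337% in CSR-1 IPs A, B and C, against 1.49%, 1.60% and 1.60% in CSR-1 inputs A, B and C, and the means were 0.317% ± 0.0564 in CSR-1 IPs and 1.57% ± 0.0654 in CSR-1 inputs (SD, n = 3 each). In WAGO-1 P3G IPs A, B and C it was 1.65%, 1.74% and 1.68%, against 0.920%, 0.953% and 0.935% in WAGO-1 P3G inputs A, B and C, and the means were 1.69% ± 0.0451 in WAGO-1 P3G IPs and 0.936% ± 0.0166 in WAGO-1 P3G inputs (SD, n = 3 each). No group overlapped its partner. The ratio of means was 0.202 for CSR-1 IP over input, 1.81 for WAGO-1 P3G IP over input and 0.598 for WAGO-1 P3G input over CSR-1 input. As shares of all reads, those on no feature included, the means were 0.237%, 0.671%, 1.15% and 0.250% in CSR-1 IPs, CSR-1 inputs, WAGO-1 P3G IPs and WAGO-1 P3G inputs.

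Against the 800 long intervals of uncommon length, which share the minimum length but not the repetition, the members weighed most in the WAGO-1 P3G IPs. Counts on members over counts on those intervals were 0.144 ± 0.00425 in CSR-1 IPs and 0.163 ± 0.00605 in CSR-1 inputs (SD, n = 3 each). They were 0.289 ± 0.00576 in WAGO-1 P3G IPs and 0.222 ± 0.000596 in WAGO-1 P3G inputs (SD, n = 3 each). This ratio does not depend on how libraries are scaled to each other. It was 1.31 times as high in WAGO-1 P3G IPs as in their inputs, 0.884 times as high in CSR-1 IPs as in theirs, and 1.36 times as high in WAGO-1 P3G inputs as in CSR-1 inputs, again with no overlap between groups. Much of this lay in the Tc3-length span. Without it the ratio was 0.112 ± 0.00307 in CSR-1 IPs and 0.132 ± 0.00584 in CSR-1 inputs, and 0.156 ± 0.00237 in WAGO-1 P3G IPs and 0.139 ± 0.00162 in WAGO-1 P3G inputs (SD, n = 3 each), or 0.845 times for CSR-1, 1.12 times for WAGO-1 P3G and 1.05 times between the inputs. The share of counted reads without that span was 0.911% in WAGO-1 P3G IPs and 0.589% in WAGO-1 P3G inputs, and 0.246% in CSR-1 IPs and 1.27% in CSR-1 inputs. For the shares and ratios over all members, and for the ratios between spans given below, each of 15 exact permutation tests (2-sided, 3 against 3 libraries) gave p = 0.1, as did adjustment over the 15, and no split of 3 against 3 can give a smaller p.

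The Tc3-length span had the highest level of the 16 in the WAGO-1 P3G IPs. Summed over its 12 copies it had 569.0, 778.4 and 753.7 CPM in CSR-1 IPs A, B and C, against 2640.6, 3066.2 and 3050.7 CPM in CSR-1 inputs A, B and C. It had 7474.6, 8082.0 and 7822.4 CPM in WAGO-1 P3G IPs A, B and C, against 3341.8, 3615.8 and 3464.5 CPM in WAGO-1 P3G inputs A, B and C. The CSR-1 IPs were the lowest libraries and the WAGO-1 P3G IPs the highest, and no groups overlapped.

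The Tc1-length span followed another pattern. Over 21 copies it had 399.5, 614.1 and 562.7 CPM in CSR-1 IPs A, B and C, against 2882.7, 3043.7 and 3211.5 CPM in CSR-1 inputs A, B and C. It had 1077.7, 1081.7 and 1061.0 CPM in WAGO-1 P3G IPs A, B and C, against 1067.8, 1119.5 and 1104.1 CPM in WAGO-1 P3G inputs A, B and C. Here the CSR-1 inputs were the highest libraries, and the WAGO-1 P3G IPs and their inputs overlapped.

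The 1242 bp span lay between these patterns. Over 47 copies it had 822.5, 1178.4 and 1086.4 CPM in CSR-1 IPs A, B and C, against 4668.6, 5179.7 and 5147.0 CPM in CSR-1 inputs A, B and C. It had 4841.7, 5105.1 and 4874.8 CPM in WAGO-1 P3G IPs A, B and C, against 2841.7, 2780.7 and 2833.6 CPM in WAGO-1 P3G inputs A, B and C. CSR-1 inputs and WAGO-1 P3G IPs thus had like levels, and both were above the WAGO-1 P3G inputs.

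Per kilobase of summed length, the Tc3-length span had a mean of 25.0 CPM in CSR-1 IPs, 104.1 in CSR-1 inputs, 277.9 in WAGO-1 P3G IPs and 123.9 in WAGO-1 P3G inputs. The Tc1-length span had 15.5, 90.03, 31.7 and 32.4 CPM per kilobase in the same groups, and the 1242 bp span had 17.6, 85.6, 84.6 and 48.3. The 3 spans were closest in level in the CSR-1 IPs and the CSR-1 inputs. Repetition alone did not go with a high level: the 1239 bp span, with 17 copies, had 0.506, 2.82, 2.71 and 1.899 CPM per kilobase.

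**Figure D1:**
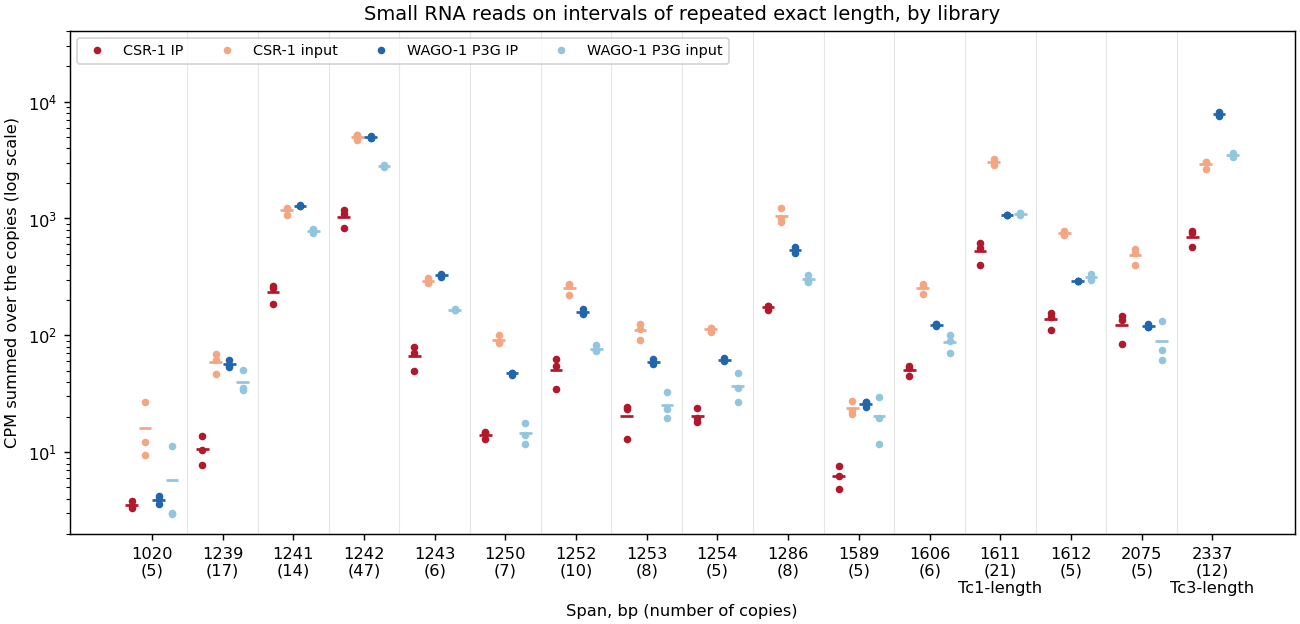
CPM (log axis) summed over the copies of each of the 16 spans, 1 point per library, for CSR-1 IP, CSR-1 input, WAGO-1 P3G IP and WAGO-1 P3G input. The Tc3-length span reaches 8082.0 CPM in a WAGO-1 P3G IP, while the WAGO-1 P3G IPs and inputs of the Tc1-length span lie on top of each other near 1073 and 1097 CPM.

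Ratios between spans within a library put these patterns on a scale free of depth. The Tc3-length span had 7.26 ± 0.285 times the counts of the Tc1-length span in WAGO-1 P3G IPs and 3.17 ± 0.0558 times in WAGO-1 P3G inputs (SD, n = 3 each). It had 1.34 ± 0.0785 times in CSR-1 IPs and 0.958 ± 0.0462 times in CSR-1 inputs (SD, n = 3 each). Both IPs therefore held more of the Tc3-length span, relative to the Tc1-length span, than their own inputs, by 2.29 times for WAGO-1 P3G and 1.40 times for CSR-1, and the WAGO-1 P3G inputs held 3.31 times as much as the CSR-1 inputs.

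The 1242 bp span moved in the same direction against the Tc1-length span, by less. Its ratio was 4.60 ± 0.114 in WAGO-1 P3G IPs and 2.57 ± 0.0887 in WAGO-1 P3G inputs, and 1.97 ± 0.0776 in CSR-1 IPs and 1.64 ± 0.0530 in CSR-1 inputs (SD, n = 3 each). The Tc3-length span over the 1242 bp span gave 1.58 ± 0.0309 in WAGO-1 P3G IPs and 1.23 ± 0.0628 in WAGO-1 P3G inputs, and 0.682 ± 0.0187 in CSR-1 IPs and 0.583 ± 0.0154 in CSR-1 inputs (SD, n = 3 each). In none of these comparisons of an IP with its input, or of the WAGO-1 P3G inputs with the CSR-1 inputs, did libraries overlap.

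**Figure D2:**
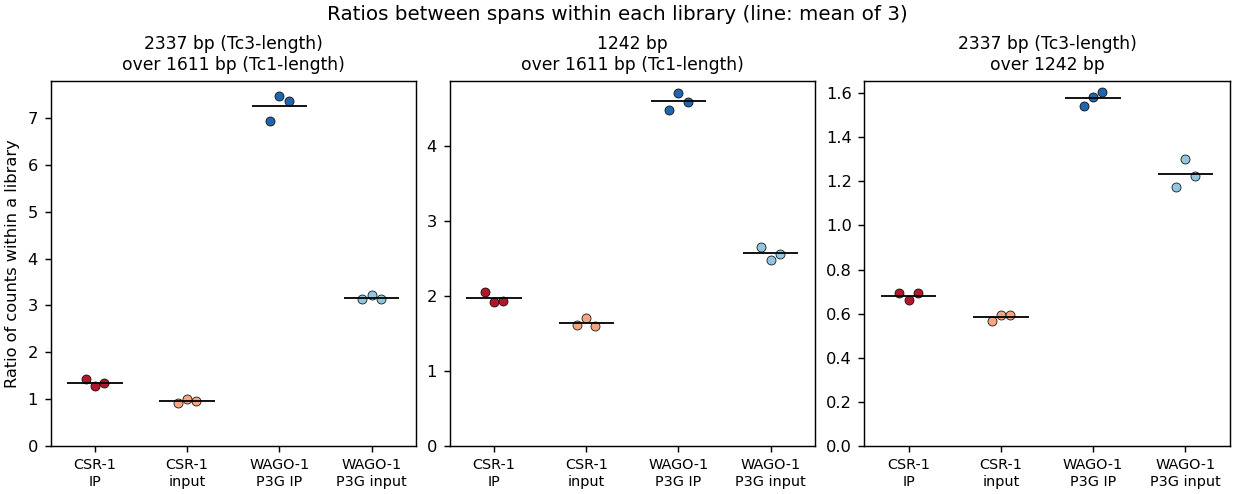
Ratio of summed counts between 2 spans within each library, 1 point per library, with a line at the mean of each group of 3. The ratio of the Tc3-length to the Tc1-length span is 7.26 in WAGO-1 P3G IPs, 3.17 in WAGO-1 P3G inputs, 1.34 in CSR-1 IPs and 0.958 in CSR-1 inputs.

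Recovery with each Argonaute was then tested with edgeR's quasi-likelihood F test on the whole table, in which the copies of a span were summed into 1 row. All 12 libraries entered the fit, and features with a p under 0.05 after Benjamini-Hochberg adjustment over all 10701 tested were called. The fit also scales for composition. At the median over the 16 spans the fitted fold was 1.29 times the ratio of mean CPM for CSR-1 IP over input, 1.54 times for WAGO-1 P3G IP over input and 0.934 times for the inputs. SEs here are approximate, taken from each log2 fold change and its F statistic.

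All 16 spans fell in the CSR-1 IPs relative to the CSR-1 inputs, and none rose, though 1020 bp entered the test through the inputs, as given below. Of all features tested 33.4% were called lower and 37.5% higher, but of the 1149 tested intervals that are no members 72.8% were called lower and 4% higher, so most intervals shared this direction. The median log2 fold change was -1.98 over the 16 spans, -1.85 over those other intervals and -0.076 over all features. Of the calls over all features 52.8% were higher, and 62.9% with all reads as library size, under which all 16 spans were again called lower. Libraries of the 2 groups did not overlap for any of the 16 spans. No count of such features over the whole table is given here, so this is not shown to be particular to the spans.

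Among the 16 spans, 1250 bp fell furthest, with 13.0, 14.6 and 14.9 CPM in CSR-1 IPs A, B and C against 86.5, 101.3 and 88.5 CPM in CSR-1 inputs A, B and C, by log2 -2.33 ± 0.18. The 1286 bp, 1239 bp and Tc1-length spans followed, with log2 -2.22 ± 0.10, -2.17 ± 0.24 and -2.17 ± 0.11. The call for the Tc1-length span had adjusted p = 1.08e-14 in edgeR, and the fitted level was 4.50-fold lower in the IP. At the other end, the 1589 bp, 2075 bp, Tc3-length and 1020 bp spans gave log2 -1.56 ± 0.33, -1.65 ± 0.17, -1.69 ± 0.10 and -1.71 ± 0.45, the Tc3-length span with adjusted p = 5.30e-13 in edgeR. The 2075 bp span had 83.5, 146.8 and 135.0 CPM in CSR-1 IPs A, B and C, against 397.7, 553.2 and 509.3 CPM in CSR-1 inputs A, B and C. CSR-1 IP A was the lowest library of its group for this span, as it was for the Tc3-length, Tc1-length and 1242 bp spans and for the members together. The call for 1020 bp, which rests on 161 counts over all libraries, ended in edgeR without CSR-1 input C (log2 -1.01, adjusted p = 0.118) and without the filter on low counts (log2 -1.25, adjusted p = 0.0552). This span passed that filter through the CSR-1 inputs, where it was highest, at 12.4, 9.38 and 26.8 CPM in A, B and C. In CSR-1 IPs A, B and C it had 3.46, 3.33 and 3.79 CPM. Its lower call is thus in part set by the filter and is not taken as support.

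In the WAGO-1 P3G IPs 15 of the 16 spans rose relative to the WAGO-1 P3G inputs, and none fell. Of all features 34.1% were called higher and 33.2% lower, and of the intervals that are no members 52.2% higher and 7.14% lower. The median log2 fold change was 1.34 over the spans, 1.04 over those other intervals and 0.11 over all features. In CPM the 2 groups did not overlap for 12 of the 16 spans, again without a count over all features. However, 1 of the 12, 1612 bp, had all its IPs below its inputs, against the direction of its call.

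The 1250 bp span rose furthest, with 46.1, 47.7 and 47.9 CPM in WAGO-1 P3G IPs A, B and C against 11.8, 18.0 and 14.1 CPM in WAGO-1 P3G inputs A, B and C, by log2 2.31 ± 0.26. Its input values rest on 4, 6 and 5 counts in WAGO-1 P3G inputs A, B and C, and those of 1253 bp on 8, 11 and 7. Of the 7 copies of 1250 bp, 4 had no count in any library. Next were the 1253 bp span with log2 1.85 ± 0.27, the Tc3-length span with log2 1.79 ± 0.10 (adjusted p = 5.11e-13 in edgeR, 3.45-fold) and the 1252 bp span with log2 1.67 ± 0.18. The smallest called rises were those of the 1612 bp span and its neighbour in length, the Tc1-length span, with log2 0.49 ± 0.11 (adjusted p = 0.000495) and 0.59 ± 0.11 (adjusted p = 3.71e-05) in edgeR. In both, mean CPM was not higher in the IP: it was 289.3 ± 0.255 in WAGO-1 P3G IPs and 316.9 ± 17.6 in WAGO-1 P3G inputs for 1612 bp, and 1073 ± 11.0 and 1097 ± 26.5 in the same groups for the Tc1-length span (SD, n = 3 each). With library totals alone, which leave out the composition factor and move the median of all features to -0.51, these 2 spans had log2 -0.13 and -0.031 and were not called, the 1239, 1589 and 2075 bp spans lost their calls at log2 0.52, 0.35 and 0.42, and 10 spans were called higher. With that scaling 1835 of the 10701 features tested were called higher and 4716 lower. Of these calls 28.0% were higher, in place of 50.7%, and 71.5% with all reads as library size. The Tc3-length span kept a rise of log2 1.17. The 1020 bp span was not called, at log2 0.042 ± 0.61, and with library totals alone it had log2 -0.57.

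The inputs of the 2 strains also differed. Of the 16 spans 12 were lower in WAGO-1 P3G inputs than in CSR-1 inputs and none higher. Of all features 18.5% were called lower and 19.5% higher, and of the intervals that are no members 38.4% lower and 8.96% higher. The median log2 fold change was -1.53 over the spans, -0.74 over those other intervals and 0.025 over all features. For 13 of the 16 spans the 2 groups did not overlap, and here too no count over all features is given.

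The 1250 and 2075 bp spans differed most between the inputs, by log2 -2.76 ± 0.28 and -2.55 ± 0.22. For 1250 bp the WAGO-1 P3G inputs A, B and C hold 4, 6 and 5 counts. For 2075 bp the values were 132.4, 74.8 and 62.0 CPM in WAGO-1 P3G inputs A, B and C, against 397.7, 553.2 and 509.3 CPM in CSR-1 inputs A, B and C. The 1253 and 1286 bp spans were next, with log2 -2.24 ± 0.30 and -1.91 ± 0.12. The Tc1-length span was lower by a fitted 2.97-fold (log2 -1.57 ± 0.11, adjusted p = 2.09e-11 in edgeR), the 1612 bp span by log2 -1.34 ± 0.12 and the 1242 bp span by log2 -0.92 ± 0.10.

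The Tc3-length span stood at the other end of the order, with log2 0.15 ± 0.10 (adjusted p = 0.260 in edgeR), and was the 1 span with a positive value. Its CPM did not overlap between the inputs, at 3474 ± 137 in WAGO-1 P3G inputs and 2919 ± 241 in CSR-1 inputs (SD, n = 3 each), and DESeq2 called it higher (log2 0.23, adjusted p = 0.0479). With all reads as library size, which moves the median of all features to -0.55, it was called lower (log2 -0.43, adjusted p = 0.00121 in edgeR), so its direction between the inputs depends on the scaling. Under that scaling 18.7% of the calls over all features were higher, in place of 51.3%. The 1589, 1239 and 1020 bp spans were not called, at log2 -0.31 ± 0.39, -0.69 ± 0.28 and -1.49 ± 0.63. The call depended on single libraries for 2 of them in edgeR. The 1239 bp span was called lower without CSR-1 IP A, CSR-1 IP B, CSR-1 input A or WAGO-1 P3G input B (log2 -0.67, -0.66, -0.87 and -0.94), and 1020 bp without WAGO-1 P3G input C (-2.47) or CSR-1 input B (-1.80).

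The difference of the enrichments, WAGO-1 P3G IP over input against CSR-1 IP over input, was positive and called for all 16 spans, 1020 bp with the limit given above. Of all features 33.8% were called higher in that contrast and 39.6% lower, and of the intervals that are no members 74.5% higher and 6.96% lower. The median difference was log2 3.32 over the spans, 2.86 over those other intervals and -0.33 over all features. It was largest for the 1250 bp span (log2 4.64 ± 0.31), followed by 1253 bp (3.97 ± 0.33), 1286 bp (3.68 ± 0.15) and 1252 bp (3.67 ± 0.24). The values for 1250 and 1253 bp rest on the few WAGO-1 P3G input counts given above. The Tc3-length span had log2 3.48 ± 0.15 (adjusted p = 5.34e-16 in edgeR) and the 1242 bp span 3.34 ± 0.14. The smallest differences above 20 CPM were those of 1612 bp (2.57 ± 0.15), 2075 bp (2.70 ± 0.27), the Tc1-length span (2.76 ± 0.15, adjusted p = 3.40e-14 in edgeR) and 1606 bp (3.09 ± 0.20).

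**Figure D3:**
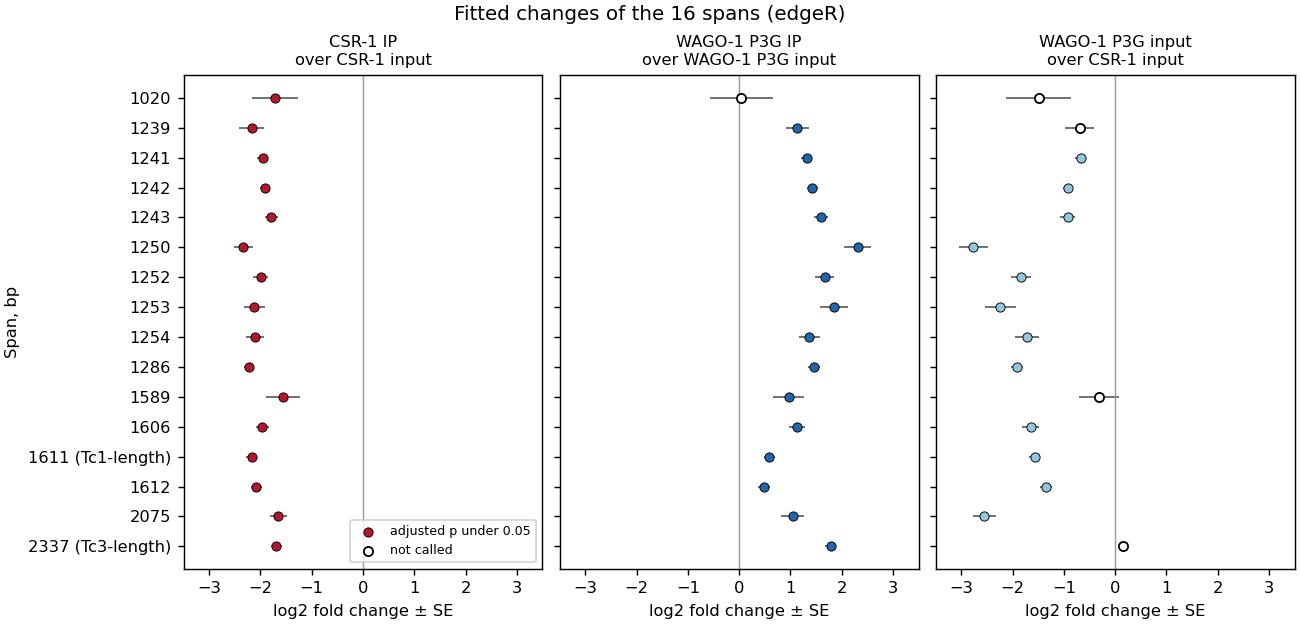
Fitted log2 fold changes with SE for the 16 spans in 3 comparisons, with filled points for adjusted p under 0.05 and open points for spans not called. All 16 points lie below 0 for CSR-1 IP over input, 15 filled points lie above 0 for WAGO-1 P3G IP over input, and the Tc3-length span alone lies above 0 for WAGO-1 P3G input over CSR-1 input.

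Copies of a span on the same strand had near-equal counts in the 3 spans with most reads. In the WAGO-1 P3G IPs, summed over 3 libraries, the 7 plus copies of the Tc3-length span had 21129 to 21891 counts each (median 21624) and the 5 minus copies 8291 to 8817 (median 8606). The 10 plus copies of the Tc1-length span had 1881 to 2073 counts (median 1961) and the 11 minus copies 557 to 706 (median 637). All copies of these 2 spans lay within 1.5-fold of the median of their strand. Of the 1242 bp copies, 21 of 21 on the plus strand (3200 to 4777 counts, median 4318) and 25 of 26 on the minus strand (125 to 1534, median 1287.5) did so.

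The scatter between copies differed between spans. The variance of the counts over their mean, which counting error alone puts near 1, was taken over the copies of a strand in each WAGO-1 P3G IP and averaged over the 3 libraries. It was 1.35 for the plus copies and 1.66 for the minus copies of the Tc1-length span, and 2.66 and 1.70 for those of the Tc3-length span. On counts summed over the 3 libraries the same 4 sets gave 1.87, 3.40, 3.69 and 4.40. These values lie above 1, but whether they exceed counting error was not tested. In the other groups, where counts are fewer, the summed counts of the 4 sets gave 0.988, 0.963, 1.03 and 0.88 in CSR-1 IPs. They gave 1.23, 0.893, 2.08 and 0.622 in CSR-1 inputs, and 1.22, 0.374, 0.214 and 0.331 in WAGO-1 P3G inputs. The plus copies of 1242 bp gave 8.97 per library, and its minus copies 16.3, or 2.09 without the 1 copy outside 1.5-fold of their median. The plus copies of 1286 bp gave 13.4. The plus copies of 1241 bp gave 357 and its minus copies 311, or 1.80 and 5.64 without the copies outside 1.5-fold of their median. Copies were left out by these same counts, so the smaller values for 1242 and 1241 bp follow in part from that choice.

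In the 3 spans with most copies or named for their length, copies in or over a RefSeq gene and copies in none had medians within 1.5-fold of each other. For plus copies in WAGO-1 P3G IPs the medians were 4349 counts in or over a gene and 4310.5 in none for 1242 bp, 1956 and 1969 for the Tc1-length span, and 21297 and 21654 for the Tc3-length span. For minus copies they were 1291 and 1273, 661 and 600, and 8606 and 8465.5 in the same spans. These differences were not tested, and reads on a copy need not come from that site.

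Where counts were shared so evenly, in the Tc3-length, Tc1-length and 1242 bp spans, the copy with the highest mean CPM held little of the total. It was III:11605281-11607617 (+), in no RefSeq gene, with 11.2% of the counts of the Tc3-length span. For the Tc1-length span it was V:3989847-3991457 (+), in no RefSeq gene, with 7.52%, and for 1242 bp X:53230-54471 (+), inside Y73B3A.20, with 4.02%. For 1241 bp it was II:11230565-11231805 (+), inside T06D8.2, with 14.4%, for 1286 bp I:9300570-9301855 (+) with 17.3%, and for 1253 bp III:8735298-8736550 (-) with 19.5%. For 1252 bp it was V:3731660-3732911 (+), which overlaps hpo-36 and T27C4.5 and lies wholly inside at least 1 of them, with 22.9%. For 2075 bp it was V:19969976-19972050 (+), inside srh-171, of a chemoreceptor family, with 29.3%. Counts were less evenly shared in 1241 and 1252 bp and on the minus strand of 2075 bp. In the WAGO-1 P3G IPs together, 1241 bp copies had 101 to 4622 counts on the plus strand and 0 to 4487 on the minus strand. Those of 1252 bp had 56 to 898 and 1 to 179, and the 2 minus copies of 2075 bp had 26 and 405.

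In other spans 1 copy held most or a large share of the counts, and the span's values lean on that copy. X:15402206-15403811 (+), in no RefSeq gene, had 93.2% of the counts of 1606 bp. X:3370010-3371248 (-), inside ZK563.2, had 91.3% of those of 1239 bp, and the other 16 copies of that length had few reads, 15 of them under 20 counts over all 12 libraries. X:9000001-9001020 (-), inside C24A3.1, had 72.7% of 1020 bp, V:9277021-9278270 (+) 66.6% of 1250 bp, V:17195236-17196478 (+), inside the pseudogene Y68A4A.5, 52.9% of 1243 bp, and II:1935481-1937092 (+), over ZK250.13, 44.0% of 1612 bp. Over all members, 5 had no count in any library, which allows up to 0.0789 CPM over the 12 libraries by counting error, and 25 had under 20 counts.

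Some copies stood at the level of another length or strand. X:3370010-3371248 (-), of 1239 bp, had 1305 counts in the WAGO-1 P3G IPs, beside a median of 1287.5 for the minus copies of 1242 bp. IV:13458850-13460090 (-), of 1241 bp, had 4487 counts, where the minus copies of its span had a median of 1306 and the plus copies one of 4448. IV:13122817-13124057 (-), of 1241 bp and inside unc-30, a homeobox gene of GABA neurons, had 0 counts in every library. These copies were singled out after their values were seen.

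Plus copies had more counts than minus copies in each of the 4 groups in the spans with most reads. The ratio of the plus median to the minus median per library for 1242 bp was 3.42 ± 0.288 in CSR-1 IPs, 3.46 ± 0.201 in CSR-1 inputs, 3.34 ± 0.0412 in WAGO-1 P3G IPs and 3.07 ± 0.220 in WAGO-1 P3G inputs (SD, n = 3 each). For the Tc1-length span it was 2.88 ± 0.106, 3.08 ± 0.0713, 3.06 ± 0.0240 and 2.73 ± 0.138 in the same groups. For the Tc3-length span it was 2.47 ± 0.164, 2.50 ± 0.152, 2.52 ± 0.0153 and 2.34 ± 0.214. The 1241 bp span had 3.32 ± 0.0193, 3.21 ± 0.249, 3.41 ± 0.0933 and 3.41 ± 0.133. The 1252 bp span, with 4 minus copies, had 3.98 ± 1.86 in CSR-1 IPs, 7.17 ± 1.30 in CSR-1 inputs and 3.77 ± 0.325 in WAGO-1 P3G IPs, with no value in WAGO-1 P3G inputs, where a minus median was 0.

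Over all members, counts on the 85 plus intervals were 3.03 ± 0.0437 times those on the 96 minus intervals in CSR-1 IPs, 3.13 ± 0.0619 times in CSR-1 inputs, 2.97 ± 0.00531 times in WAGO-1 P3G IPs and 2.78 ± 0.126 times in WAGO-1 P3G inputs (SD, n = 3 each). Over the long intervals of uncommon length, 431 plus and 369 minus, the ratios were 1.08 ± 0.00603, 1.05 ± 0.0197, 1.63 ± 0.0131 and 1.40 ± 0.0524. Over all intervals that are no members, 27595 plus and 27483 minus, they were 1.24 ± 0.0146, 1.18 ± 0.00792, 1.74 ± 0.00903 and 1.44 ± 0.0498. A surplus on plus intervals was thus also present outside the members, at a smaller size and mainly in the WAGO-1 P3G groups. These are ratios of summed counts, not of counts per interval. Whether the strand in the table follows that of an inserted element is not known here.

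**Figure D4:**
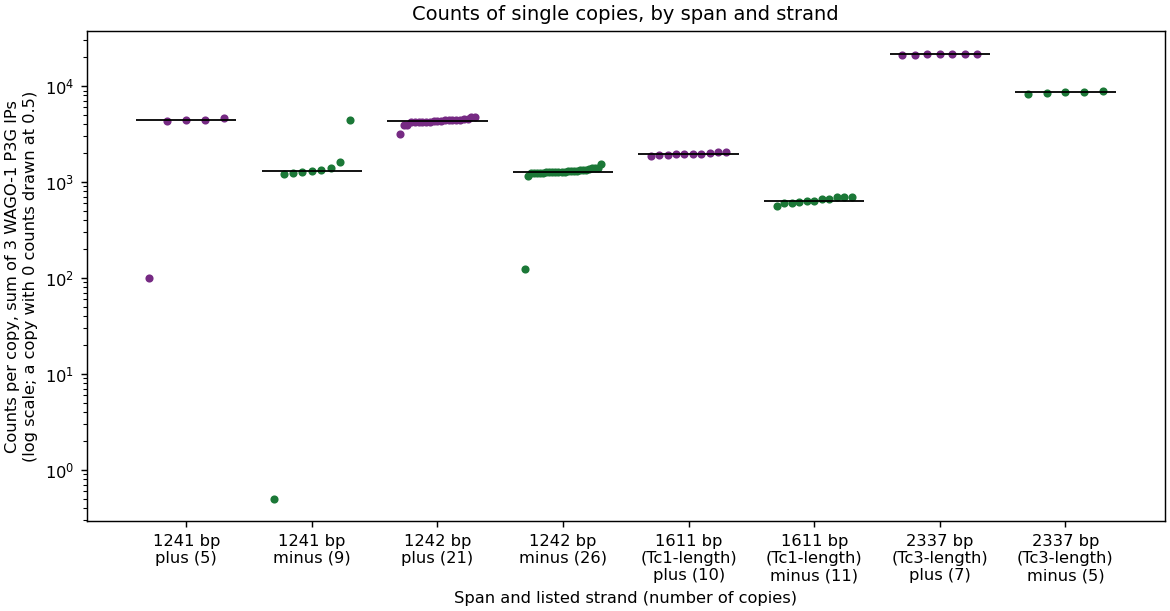
Counts of each copy in the 3 WAGO-1 P3G IPs together (log axis), by span and by the strand listed in the table. Purple points are plus copies, green points minus copies, and lines are medians. The plus copies of the Tc3-length span lie between 21129 and 21891 counts and its minus copies between 8291 and 8817.

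Copies were also tested apart, on the table as deposited, where 137 of the 181 passed the filter on low counts and 44 did not. Copies of a span may share reads and are not separate instances. In CSR-1 IP over input 133 were called lower and none higher. Of all features 33.6% were lower and 37.5% higher, and of the intervals that are no members 72.3% lower and 4.18% higher. Among the 133 is X:9000001-9001020 (-), of 1020 bp, which passed the filter through the CSR-1 inputs, where it was highest. It had 9.88, 7.50 and 21.4 CPM in CSR-1 inputs A, B and C, against 2.44, 2.91 and 2.62 in CSR-1 IPs A, B and C. Its lower call, and its higher call in the difference below, are thus in part set by the filter. How many other copies passed in this way was not counted. In WAGO-1 P3G IP over input 118 were called higher and none lower, where 34.2% of all features and 51.3% of the intervals that are no members were higher and 33.4% and 7.31% lower. The 118 hold all 12 copies of the Tc3-length span and all 46 tested copies of 1242 bp, but 13 of the 21 of the Tc1-length span. Of the 8 copies of the Tc1-length span that were not called, at log2 0.17 to 0.55, 7 are listed on the minus strand, where counts are lower, and in 3 of those 7 no RefSeq gene lies.

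Between the inputs 101 copies were called lower and 1 higher, where 18.8% of all features and 38.3% of the intervals that are no members were lower and 19.6% and 9.23% higher. All 21 copies of the Tc1-length span were among the lower, as were 37 of the 46 tested of 1242 bp. The 1 that was higher, II:3226539-3228875 (+) of the Tc3-length span, overlaps the pseudogene ZC239.1 without lying wholly inside it. It had log2 0.35 ± 0.13 (adjusted p = 0.0428 in edgeR), and was named after its values were seen. Its call ended without the filter on low counts (adjusted p = 0.162) or without any 1 of the 6 input libraries (0.0584 to 0.245) in edgeR, and with all reads as library size it had log2 -0.25. In the difference of enrichments 134 copies were called higher and 1 lower, where 33.9% of all features and 73.6% of the intervals that are no members were higher and 40% and 6.96% lower.

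The copy called against its span was V:15556046-15557657 (+), of 1612 bp and inside acr-18, which codes for an acetylcholine receptor subunit. It had 34, 22 and 24 counts in CSR-1 IPs A, B and C, against 2, 4 and 1 in CSR-1 inputs A, B and C. It had 27, 24 and 39 counts in WAGO-1 P3G IPs A, B and C, against 3, 3 and 4 in WAGO-1 P3G inputs A, B and C. Its difference of enrichments was log2 -1.74 ± 0.70 (adjusted p = 0.0275 in edgeR), while the 1612 bp span had 2.57 ± 0.15. The call rests on few input counts. It ended without CSR-1 input A (adjusted p = 0.0852), CSR-1 input C (0.113) or any of the 3 WAGO-1 P3G inputs (0.0680 to 0.117) in edgeR, and without any 1 of the 6 IPs the copy did not pass the filter. It also ended with DESeq2 (adjusted p = 0.0731), median-of-ratios factors (0.0530), all reads as library size (0.0773) or no filter on low counts (0.188), while the direction stayed in each of these.

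A like pattern, with few counts, was seen in the 1606 bp span once X:15402206-15403811 (+) was left out. The other 5 copies together had a CSR-1 IP over input log2 of 0.0051 (adjusted p = 0.991 in edgeR) and a difference of enrichments of -0.90 (adjusted p = 0.160 in edgeR), neither of them called, against -1.97 ± 0.13 and 3.09 ± 0.20 for the whole span. Among these 5, II:14160090-14161695 (+), inside the exonuclease gene xrn-2, had 29, 14 and 23 counts in CSR-1 IPs A, B and C, against 2, 3 and 3 in CSR-1 inputs A, B and C. X:12855002-12856607 (-) had 28, 11 and 20 counts in CSR-1 IPs A, B and C, against 0, 0 and 2 in CSR-1 inputs A, B and C, and did not pass the filter. These copies were chosen after their values were seen.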

How the data were processed

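The authors deposited 1 table of raw counts, with no normalization, for 12 small RNA libraries. Per the submitters' processing notes, HTSeq 0.11.2, cutadapt 2.3, Bowtie 1.2.3, SAMtools 1.9 and build ce11 were used. Aligner options, strand counting and the source of the intervals were not given in the sources used here.

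Members and lists were chosen with earlier results of these data known. Member intervals of each length were summed into 1 row that replaced them, and edgeR 4.0.16 (R 4.3.3; filterByExpr by group, TMM, quasi-likelihood F tests, 1 mean per group, Benjamini-Hochberg adjustment) was run on all features. Tested on simulated data for WAGO-1 P3G IP over input (10701 features), it recovered 99% of 4-fold and 44% of 2-fold changes, and 6.54% of its calls were false. These rates belong to the simulated data, and whether they hold for the libraries themselves was not tested. DESeq2 1.42.0 was an alternative, with other scalings, filters, sums over copies and libraries left out. Shares and ratios were compared by exact permutation with scipy 1.17.1. Input depth limits the precision of copies with few reads, and limits for counts of 0 cover counting error only, from 3 counts.

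Spans were named by rule: 1611 bp (the Tc1-length span) and 2337 bp (the Tc3-length span), the 8 of highest mean CPM, the 6 with most copies, and the 4 largest and 4 smallest fold changes per comparison among called spans of at least 20 CPM whose libraries did not overlap. Copies were named as the highest of their span or as called against it. Others are given as chosen after their values were seen. All 16 spans are given some value. No identifier matched a symbol in the tables used (0 matched), so the lists of transposon control genes and cell type markers gave no member. The sum over copies of 90% identity was not run, since no genome was used here. Same-lettered libraries did not all deviate together, so letters were not treated as pairs.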

Additional observations from a re-analysis of the deposited data

Results flagged for a closer look

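The difference of enrichments, WAGO-1 P3G against CSR-1, passed the test of the difference itself (edgeR, adjusted p under 0.05) for each of the 16 spans. This difference holds the inputs as well as the IPs, so a pass does not by itself mark a difference between the IPs. For 2075 bp mean CPM was 121.8 in CSR-1 IPs and 120.1 in WAGO-1 P3G IPs, but 486.8 in CSR-1 inputs and 89.7 in WAGO-1 P3G inputs. The Tc3-length span, in contrast, had 700.4 CPM in CSR-1 IPs and 7793 in WAGO-1 P3G IPs, with 2919 and 3474 in their inputs. Most intervals that are no members passed in the same direction (74.5%), so a pass is not particular to the members. The log2 values not given with the comparison above are 1.75 for 1020 bp, 3.31 for 1239 bp, 3.28 for 1241 bp, 3.39 for 1243 bp, 3.47 for 1254 bp and 2.53 for 1589 bp. Those given above are 3.34 for 1242 bp, 4.64 for 1250 bp, 3.67 for 1252 bp, 3.97 for 1253 bp, 3.68 for 1286 bp, 3.09 for 1606 bp, 2.76 for the Tc1-length span, 2.57 for 1612 bp, 2.70 for 2075 bp and 3.48 for the Tc3-length span. The 1020 bp span entered the test through the CSR-1 inputs, where it was highest. Its value rests on 161 counts and lost its call without CSR-1 input C (log2 1.36), WAGO-1 P3G input A (1.55) or WAGO-1 P3G input B (1.58), with library totals alone (1.53) or without the filter on low counts (1.83). The value for 1606 bp rests on 1 copy, since without that copy the difference was log2 -0.90. The copy V:15556046-15557657 (+), of 1612 bp, was the 1 tested copy with a called difference of the other sign (log2 -1.74), and most alternatives ended that call.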

How the results depend on the processing

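Over the counts of calls, the shares and the ratios, 392 alternative values stayed within the limits set for them, 21 rose past them and 21 fell below. Over single spans, 1362 kept direction and call, 13 gained a call, 15 lost it and 8 changed sign. The 8 were 1606 bp without its highest copy (log2 0.0051 for CSR-1 IP over input, -0.90 for WAGO-1 P3G IP over input and -0.90 for the difference), the 1020 bp, Tc1-length and 1612 bp spans for WAGO-1 P3G IP over input with library totals alone (-0.57, -0.031 and -0.13), 1589 bp between the inputs by its highest copy (0.082), and the Tc3-length span between the inputs with all reads as library size (-0.43). Apart from the dropped copy, the composition factor and the library size that these settings change by construction, the cause was not tested.

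Between the inputs DESeq2 called 1 span higher, where edgeR called 0. Of copies, CSR-1 IP over input had 1 called higher with all reads as library size and 1 without the filter on low counts, where the count was 0, and WAGO-1 P3G IP over input had 1 called lower with library totals alone, where it was 0. Between the inputs 1 copy was called higher. That became 0 with all reads as library size or without the filter, and 2 with DESeq2, library totals alone, median-of-ratios factors or the fit to only the groups compared. The 1 copy called lower in the difference became 0 with all reads as library size, DESeq2, median-of-ratios factors or no filter.

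Leaving out each of the 12 libraries in turn gave 15 to 16 spans lower for CSR-1 IP over input, 15 higher for WAGO-1 P3G IP over input, 12 to 13 lower between the inputs and 15 to 16 higher in the difference. For copies the ranges were 124 to 137, 114 to 136, 92 to 103 and 124 to 139. The filter on low counts was run again in each of these fits, so the set tested was not always the 137 copies of the main fit. The 1020 bp span did not pass in every fit either. These ranges therefore mix lost or gained calls with copies and spans that left or entered the test. In the opposite direction they were 0 to 1 for CSR-1 IP over input, 0 to 1 for WAGO-1 P3G IP over input, 0 to 2 between the inputs and 0 to 1 in the difference. With the replicate letter as a block, 16, 15, 12 and 16 spans were called in the 4 comparisons, the same numbers as without it, and 2 copies higher between the inputs in place of 1. Neither these counts nor those with a library left out are set beside a share over all features. The letters are not taken to pair libraries. Same-letter correlations of the deviations were 0.314, 0.202 and 0.0387 for CSR-1 IP with input and -0.00995 to 0.0204 for WAGO-1 P3G, and CSR-1 IP C correlated best with input B (0.112). Chosen after seeing the data were the sums without the highest copy or on 1 strand, the members over long intervals without the Tc3-length span, and the alternatives for copies and for ratios of spans. The fit to only the groups compared has no value for the difference, and the sum over copies of 90% identity was not run.

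The inputs, with 334088 to 533232 counted reads, limit the copies: 44 of 181 did not pass the filter, and 1020 bp rests on 161 counts. In WAGO-1 P3G inputs A, B and C the 1250 bp span had 4, 6 and 5 counts and the 1253 bp span 8, 11 and 7. The 1239 and 1606 bp spans rest on 1 copy each.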
